A study of Mus musculus with 12 samples.

Results

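The genes described here encode the urea cycle of the liver: the enzymes Cps1, Otc, Ass1, Asl and Arg1, the synthase Nags that makes the activator of Cps1, and the mitochondrial carriers Slc25a13 and Slc25a15. Members were every probe set annotated with exactly 1 of these 8 symbols, which gave 11 probe sets among 45101 on the array. Otc had 3 probe sets, Slc25a15 had 2 and each of the other 6 genes had 1, and a gene with several is represented by the brightest over all arrays. Total liver RNA of male mice on the 129J background was hybridized to Affymetrix mouse genome arrays, and each value is a log2 intensity after RMA, the authors' background correction, quantile normalization and probe set summary. The labels give 4 groups of 3 mice, 1 array for each mouse: Iqgap2 knockout (KO) mice at 24 months, whose RNA came from hepatocellular carcinoma tumors, KO mice at 6 months with normal liver, wild-type (WT) mice at 24 months with normal liver, and WT mice at 6 months with normal liver. The sources used here give the KO mice as Iqgap2-/-, without the scaffold protein IQGAP2, and name no driver line for a single tissue. Tumor tissue was given for no other group, so by label the tumor cannot be told apart from the joint effect of genotype and age.

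Iqgap2 itself went against 2 of the labels. Its brightest probe set (1433885_at) read 12.15, 12.05 and 12.15 in the arrays labelled KO 24 months tumor, 8.12, 8.68 and 8.07 in those labelled KO 6 months, and 12.28, 12.30 and 11.92 in those labelled WT 24 months. The arrays labelled WT 6 months gave 8.38, 8.24 and 8.33. Iqgap2 was thus high in the arrays labelled KO 24 months tumor and low in those labelled WT 6 months, which is the opposite of what each genotype label states. The other Iqgap2 probe set had means of 8.82, 7.36, 8.81 and 7.71 in the same order of groups. The labels are kept as deposited, every group below is the group of arrays labelled so, and no direction given here can be read as an effect of genotype, age or tumor without this doubt. Which exons are missing in the KO mice was not given in the sources used here. Array medians lay between 5.41 and 5.45, and correlations between arrays between 0.960 and 0.994. The array labelled WT 24 months replicate 3 stood apart in immune cell markers: the summed intensity of 9 Kupffer cell markers was 15.24 on the log2 scale there, against 11.76 and 12.59 in the other 2 arrays of its group and 10.78 to 12.32 in the 9 arrays of the other groups.

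The urea cycle turns ammonia, which is toxic to the brain, into urea for excretion. In mammals the complete cycle runs in hepatocytes, mainly in those around the portal vein, while hepatocytes next to the central vein bind the remaining ammonia as glutamine. Carbamoyl phosphate and citrulline are made inside mitochondria, the later steps take place in the cytosol, and carriers in the inner mitochondrial membrane join both compartments by moving ornithine, citrulline, aspartate and glutamate.

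Promoter windows from RefSeq (mouse build GRCm38.p6), running from 250 bases before to 50 bases after the start site, were on hand for 5 of the 8 genes, with 6 windows because Slc25a15 had 2. The windows of Otc, Slc25a15 and Nags are shown because these genes had different patterns over the arrays: the leading probe sets of Otc and Slc25a15 were lowest in the arrays labelled WT 6 months, and that of Nags was not. Each is printed 5′ to 3′ on the strand of its gene, in lower case, with matches to the motifs searched in capitals. The Otc window lies at chrX:10252055-10252354 on the plus strand, the Slc25a15 window at chr8:22398572-22398871 on the minus strand and the Nags window at chr11:102145263-102145562 on the plus strand.
Otc: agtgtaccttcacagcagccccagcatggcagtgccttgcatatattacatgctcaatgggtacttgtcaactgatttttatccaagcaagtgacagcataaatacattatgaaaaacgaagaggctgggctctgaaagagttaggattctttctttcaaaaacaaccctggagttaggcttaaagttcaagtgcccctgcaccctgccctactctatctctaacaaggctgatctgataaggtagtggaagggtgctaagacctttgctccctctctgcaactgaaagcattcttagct
Slc25a15: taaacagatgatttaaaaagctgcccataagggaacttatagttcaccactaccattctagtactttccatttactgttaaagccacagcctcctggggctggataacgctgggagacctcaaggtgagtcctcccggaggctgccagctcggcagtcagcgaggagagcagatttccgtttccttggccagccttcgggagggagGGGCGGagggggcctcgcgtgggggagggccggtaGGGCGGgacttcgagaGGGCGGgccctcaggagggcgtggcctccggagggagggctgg
Nags: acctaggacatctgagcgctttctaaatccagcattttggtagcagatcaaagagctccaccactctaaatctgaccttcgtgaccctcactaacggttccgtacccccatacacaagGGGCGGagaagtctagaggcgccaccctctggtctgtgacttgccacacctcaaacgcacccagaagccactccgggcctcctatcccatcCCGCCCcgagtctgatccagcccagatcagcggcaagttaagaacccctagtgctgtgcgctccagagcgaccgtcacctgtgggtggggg

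Both strands were searched for 7 short motifs: TATAAA (the box bound by TBP), CCAAT (bound by NF-Y), TTGCNNAA (C/EBP), GTTAAT (part of an HNF1 site), CAAAGTCCA (HNF4), TGACGTCA (cyclic AMP response element) and GGGCGG (SP1 box). Overlapping matches were counted each. The Otc window held none of them and had a GC content of 44.3%. The Slc25a15 window printed above held GGGCGG at 3 places with a GC content of 60.7%, and the Nags window held it at 2 places, once on each strand, with a GC content of 57.7%. GGGCGG also occurred in the Ass1 window and in the other Slc25a15 window, and it was present in 35.7% of all 32851 windows of this length. CCAAT, present in 37.4% of all windows, occurred in the Slc25a13 window alone. The TBP, C/EBP, HNF1, HNF4 and cyclic AMP motifs had no match in the 6 windows. Of all windows, 13.6% held TATAAA, 10.8% the C/EBP motif, 7.1% the HNF1 motif, 0.475% the HNF4 motif and 1.79% the cyclic AMP response element. A match is a run of letters in the window and was not tested as a binding site.

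Most urea cycle genes had a low level in the arrays labelled WT 6 months and nearly the same level in the 9 other arrays. For 6 of the 8 genes (Cps1, Otc, Asl, Arg1, Slc25a13 and Slc25a15) all 3 arrays labelled WT 6 months lay below all 9 others. The share of all probe sets with this separation was not determined, so this count has no background beside it. Arg1 showed the largest difference, at 36.3-fold, 38.0-fold and 39.5-fold higher in the arrays labelled KO 24 months tumor, KO 6 months and WT 24 months than under the label WT 6 months, and Cps1 was 7.68-fold, 7.58-fold and 7.70-fold higher. These 3 comparisons share the arrays labelled WT 6 months, so they are not independent of each other. In liver RNA as a whole, fewer cells that express a gene and less of its RNA per cell cannot be told apart. A gene was called where its adjusted p from limma (Benjamini-Hochberg over 45037 probe sets) was under 0.05.

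Called higher were 6 of 8 genes in the arrays labelled KO 24 months tumor over WT 6 months, 6 of 8 in KO 6 months over WT 6 months and 5 of 8 in WT 24 months over WT 6 months, and none was called lower. Among all probe sets, 7.19% were called higher and 6.95% lower in KO 24 months tumor over WT 6 months. In KO 6 months over WT 6 months the shares were 6.08% higher and 6.03% lower, and in WT 24 months over WT 6 months 3.80% higher and 4.96% lower. The median log2 difference of the 8 genes was 1.04 in KO 24 months tumor over WT 6 months, 1.17 in KO 6 months over WT 6 months and 1.16 in WT 24 months over WT 6 months, against medians of 0.05, 0.04 and 0.00 over all probe sets. Of the 11 probe sets, 9, 9 and 7 were called higher in the same order of comparisons. The count of genes in WT 24 months over WT 6 months depended on the test, since SAM, the permutation method named in the study's methods, called Arg1 alone among the 8 genes there. With the arrays centred on 3 housekeeping genes (Hprt, Gusb and Actb), Slc25a13 and Slc25a15 were no longer called in KO 24 months tumor over WT 6 months, at 0.64 (adjusted p = 0.131 from limma) and 0.61 (adjusted p = 0.106), or in KO 6 months over WT 6 months, at 0.61 (adjusted p = 0.169) and 0.66 (adjusted p = 0.0755). Slc25a15 was not called in WT 24 months over WT 6 months, at 0.60 (adjusted p = 0.134). Hprt, 1 of these 3 reference genes, was itself called lower in all 3 comparisons with WT 6 months, by -0.51 (adjusted p = 0.00578 from limma) in KO 24 months tumor, -0.48 (adjusted p = 0.00878) in KO 6 months and -0.56 (adjusted p = 0.00447) in WT 24 months.

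**Figure D1:**
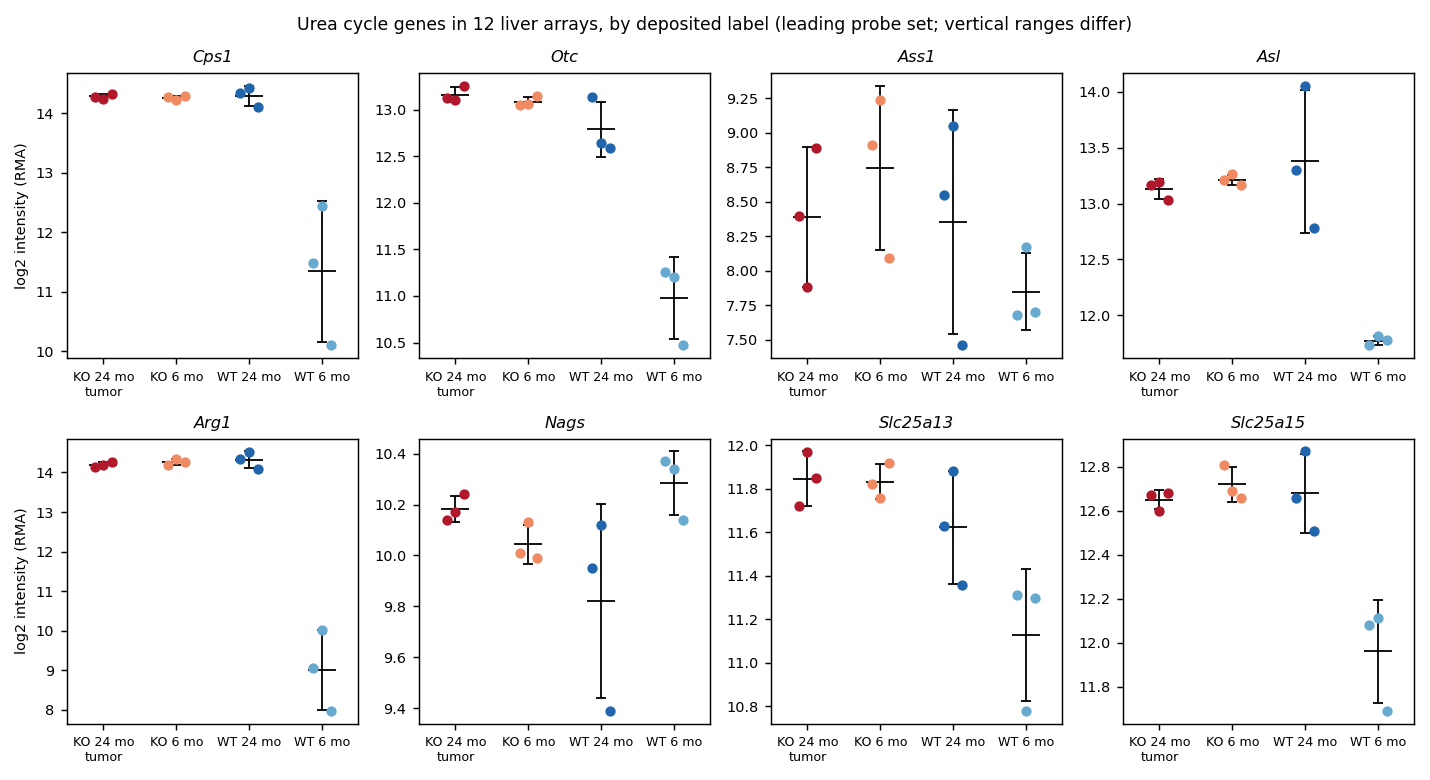
Log2 intensity (RMA, vertical axis) of the leading probe set of each of the 8 urea cycle genes in 12 arrays, by deposited label, with 1 point per array and horizontal bars with whiskers for the mean and SD of 3 arrays; vertical ranges differ between panels. Cps1, Otc, Asl, Arg1, Slc25a13 and Slc25a15 are lowest in all 3 arrays labelled WT 6 months, whereas Ass1 overlaps between groups and Nags is highest there on average.

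Cps1, the mitochondrial synthetase that makes carbamoyl phosphate from ammonia and bicarbonate in the rate-limiting step of the cycle, read 14.28, 14.25 and 14.33 in the arrays labelled KO 24 months tumor, 14.28, 14.23 and 14.29 in those labelled KO 6 months, and 14.34, 14.43 and 14.11 in those labelled WT 24 months. In the arrays labelled WT 6 months it read 11.49, 12.45 and 10.10. The 9 higher arrays spanned 14.11 to 14.43, and the 3 arrays labelled WT 6 months were low and spread widely (SD 1.18, n = 3). On the log2 scale, Cps1 differed by 2.94 (limma SE 0.41, adjusted p = 7.78e-04) for KO 24 months tumor over WT 6 months and 2.92 (SE 0.41, adjusted p = 9.04e-04) for KO 6 months over WT 6 months. For WT 24 months over WT 6 months the value was 2.95 (SE 0.41, adjusted p = 0.00101). Without the lowest array, WT 6 months replicate 3, these differences were 2.32, 2.30 and 2.32, and each was still called. Of the 8 genes, Cps1 had the widest spread within the arrays labelled WT 6 months.

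Nags, which makes N-acetylglutamate, the activator that Cps1 requires, did not have this pattern. It read 10.14, 10.17 and 10.24 in the arrays labelled KO 24 months tumor, 10.01, 10.13 and 9.99 in those labelled KO 6 months, and 9.95, 10.12 and 9.39 in those labelled WT 24 months. Its readings under the label WT 6 months were 10.37, 10.34 and 10.14. The highest 2 of all 12 arrays were labelled WT 6 months, and the lowest was WT 24 months replicate 3. Nags differed on the log2 scale by -0.10 (limma SE 0.16, adjusted p = 0.731) for KO 24 months tumor over WT 6 months and -0.24 (SE 0.16, adjusted p = 0.379) for KO 6 months over WT 6 months. The value was -0.46 (SE 0.16, adjusted p = 0.104) for WT 24 months over WT 6 months. None passed the test with all arrays. Without WT 24 months replicate 2 the last was -0.62 and passed (adjusted p = 0.0337), and without WT 24 months replicate 3 it was -0.25 (adjusted p = 0.230).

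Otc, which joins carbamoyl phosphate and ornithine to citrulline in the mitochondrial matrix, read 13.12, 13.10 and 13.25 on its brightest probe set (1420525_a_at) in the arrays labelled KO 24 months tumor, 13.05, 13.06 and 13.14 in those labelled KO 6 months, and 13.13, 12.64 and 12.59 in those labelled WT 24 months. The values under the label WT 6 months were 11.26, 11.20 and 10.47. The arrays labelled WT 6 months were separate from the rest, and 2 of the 3 arrays labelled WT 24 months were lower than all arrays of both KO labels. Otc was 4.53-fold higher in the arrays labelled KO 24 months tumor than in those labelled WT 6 months, which is 2.18 log2 units (limma SE 0.20, adjusted p = 3.75e-05). For KO 6 months over WT 6 months it differed by 2.11 (SE 0.20, adjusted p = 4.59e-05), and for WT 24 months over WT 6 months it was 1.81 (SE 0.20, adjusted p = 1.76e-04). The 2 dimmer Otc probe sets had smaller differences with the same sign, at 1.50, 1.47 and 1.53 for 1436615_a_at and 1.29, 1.23 and 0.91 for 1425540_at in the same order of comparisons, and all 6 were called.

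Ass1 condenses citrulline and aspartate to argininosuccinate in the cytosol. Its only probe set listed for it alone (1459937_at) read 8.40, 7.88 and 8.89 in the arrays labelled KO 24 months tumor, 8.91, 9.24 and 8.09 in those labelled KO 6 months, and 8.55, 9.05 and 7.46 in those labelled WT 24 months. Under the label WT 6 months it read 7.68, 8.17 and 7.70. The groups overlapped, the lowest array was WT 24 months replicate 3, and no comparison of Ass1 was called by limma. SAM without a fold called KO 6 months over WT 6 months (q = 0.0399). Its log2 difference was 0.54 (SE 0.40, 95% interval -0.34 to 1.42) for KO 24 months tumor over WT 6 months and 0.90 (SE 0.40, 0.02 to 1.78) for KO 6 months over WT 6 months. In WT 24 months over WT 6 months it was 0.51 (SE 0.40, -0.37 to 1.38).

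A brighter probe set (1416239_at) is annotated to Ass1 together with Gm5424, so its signal cannot be given to either gene and it is not counted among the 11. It read 14.38, 14.26 and 14.40 in the arrays labelled KO 24 months tumor, 14.42, 14.52 and 14.29 in those labelled KO 6 months, and 14.28, 14.31 and 13.84 in those labelled WT 24 months. In the arrays labelled WT 6 months it read 12.94, 13.04 and 12.09. On this shared probe set the arrays labelled WT 6 months lay below all others. The log2 differences were 1.66 (limma SE 0.22, adjusted p = 4.92e-04), 1.72 (SE 0.22, adjusted p = 4.25e-04) and 1.46 (SE 0.22, adjusted p = 0.00146) for KO 24 months tumor, KO 6 months and WT 24 months over WT 6 months. The probe set named for Ass1 alone and the shared one thus differed in whether the test was passed.

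**Figure D2:**
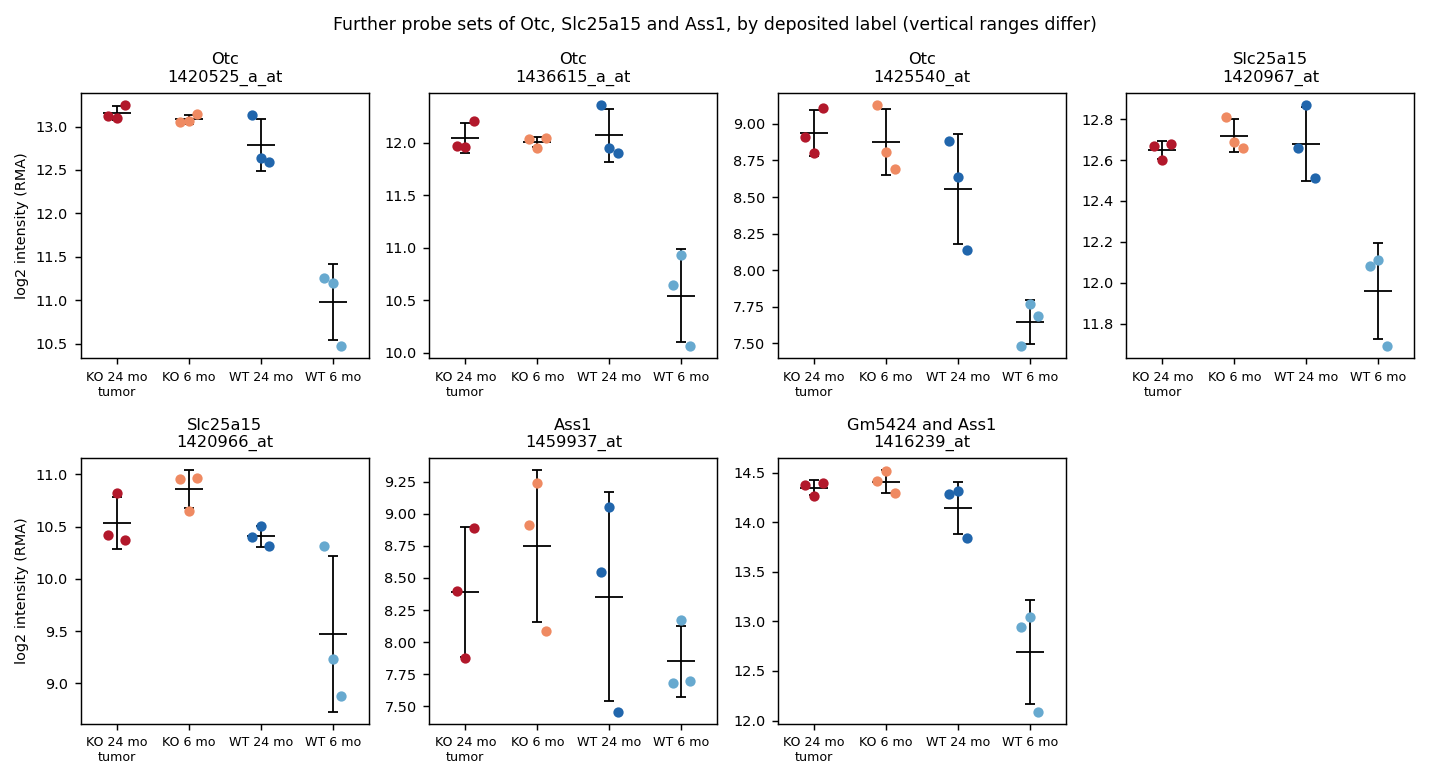
Log2 intensity (RMA, vertical axis) of the 3 Otc, 2 Slc25a15 and 1 Ass1 probe sets and of the probe set shared by Gm5424 and Ass1, by deposited label, with 1 point per array and the mean and SD of 3 arrays; vertical ranges differ between panels. The arrays labelled WT 6 months lie below all others on every Otc probe set, both Slc25a15 probe sets and the shared probe set. On the dimmer Slc25a15 probe set the closest arrays both read 10.31 after rounding. On the Ass1 probe set the arrays labelled WT 6 months overlap with other groups.

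Asl, the lyase that splits argininosuccinate into arginine and fumarate, read 13.17, 13.19 and 13.03 in the arrays labelled KO 24 months tumor, 13.21, 13.26 and 13.17 in those labelled KO 6 months, and 13.30, 14.05 and 12.78 in those labelled WT 24 months. Its readings under the label WT 6 months were 11.73, 11.81 and 11.78. The arrays labelled WT 6 months were low and close together (SD 0.04, n = 3), and those labelled WT 24 months were the most spread (SD 0.64, n = 3) and held both the highest and the lowest of the 9 other arrays. On the log2 scale, Asl differed by 1.36 (limma SE 0.23, adjusted p = 0.00262) for KO 24 months tumor over WT 6 months and 1.44 (SE 0.23, adjusted p = 0.00212) for KO 6 months over WT 6 months. For WT 24 months over WT 6 months the value was 1.60 (SE 0.23, adjusted p = 0.00127).

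Arg1, the cytosolic arginase that releases urea and restores ornithine, read 14.14, 14.19 and 14.26 in the arrays labelled KO 24 months tumor, 14.18, 14.33 and 14.27 in those labelled KO 6 months, and 14.35, 14.51 and 14.09 in those labelled WT 24 months. The values under the label WT 6 months were 9.05, 10.01 and 7.98. The 9 higher arrays spanned 14.09 to 14.51, so all of them were at least 4.08 above the highest array labelled WT 6 months. Arg1 differed on the log2 scale by 5.18 (limma SE 0.36, adjusted p = 5.84e-06) for KO 24 months tumor over WT 6 months and 5.25 (SE 0.36, adjusted p = 4.87e-06) for KO 6 months over WT 6 months. The value was 5.30 (SE 0.36, adjusted p = 5.29e-06) for WT 24 months over WT 6 months. Leaving out any 1 array moved the last between 4.78 and 5.80.

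Slc25a15 exchanges ornithine and citrulline across the inner mitochondrial membrane. Its brighter probe set (1420967_at) read 12.67, 12.60 and 12.68 in the arrays labelled KO 24 months tumor, 12.81, 12.69 and 12.66 in those labelled KO 6 months, and 12.66, 12.87 and 12.51 in those labelled WT 24 months. The arrays labelled WT 6 months gave 12.08, 12.11 and 11.69. Again the arrays labelled WT 6 months were the lowest 3, but the step on this probe set was smaller than on the leading probe sets of the enzymes that were called. It differed by 0.69 log2 units (limma SE 0.13, adjusted p = 0.00448) for KO 24 months tumor over WT 6 months and 0.76 (SE 0.13, adjusted p = 0.00294) for KO 6 months over WT 6 months. In WT 24 months over WT 6 months it was 0.72 (SE 0.13, adjusted p = 0.00473). The dimmer probe set (1420966_at) read 10.42, 10.82 and 10.37 in the arrays labelled KO 24 months tumor, 10.96, 10.65 and 10.97 in those labelled KO 6 months, and 10.40, 10.51 and 10.31 in those labelled WT 24 months. The label WT 6 months had 10.31, 9.23 and 8.88. Array WT 6 months replicate 1 was near the other groups there, and the difference for WT 24 months over WT 6 months was not called (0.93, SE 0.28, adjusted p = 0.0684), whereas those for KO 24 months tumor (1.06, adjusted p = 0.0280) and KO 6 months (1.39, adjusted p = 0.00863) were.

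Slc25a13, also called citrin, exports aspartate from liver mitochondria for the Ass1 step. It read 11.72, 11.97 and 11.85 in the arrays labelled KO 24 months tumor, 11.82, 11.76 and 11.92 in those labelled KO 6 months, and 11.63, 11.88 and 11.36 in those labelled WT 24 months. In the arrays labelled WT 6 months it read 11.31, 10.78 and 11.30. Here the gap was narrow, with 0.05 between the lowest array labelled WT 24 months and the highest labelled WT 6 months. Slc25a13 was 1.65-fold higher in the arrays labelled KO 24 months tumor than in those labelled WT 6 months, which is 0.72 log2 units (limma SE 0.16, adjusted p = 0.0125), and 1.63-fold higher in those labelled KO 6 months (0.71, SE 0.16, adjusted p = 0.0161). For WT 24 months over WT 6 months it differed by 0.50 (SE 0.16, adjusted p = 0.0914), and among fits without 1 array it passed only without WT 24 months replicate 3 (0.63, adjusted p = 0.0382). The call for KO 24 months tumor was lost without KO 24 months tumor replicate 2 (adjusted p = 0.0529), and that for KO 6 months without KO 6 months replicate 3 (adjusted p = 0.0630) or WT 6 months replicate 2 (adjusted p = 0.0549).

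**Figure D3:**
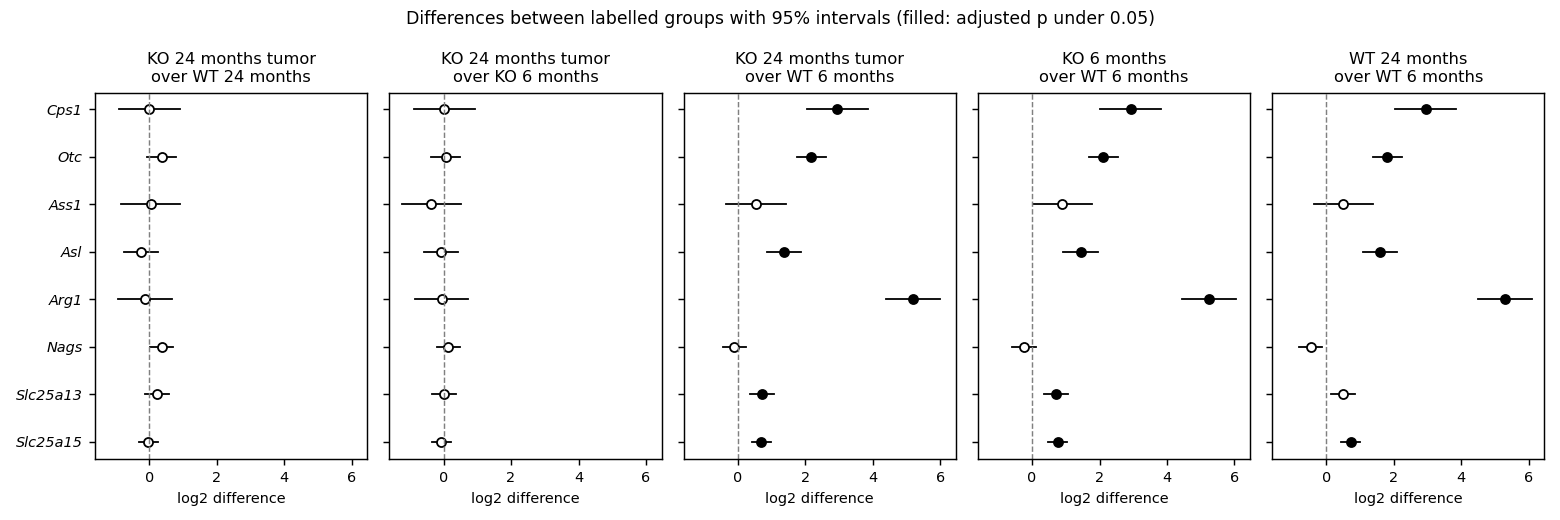
Log2 difference (horizontal axis) of each urea cycle gene in 5 comparisons of labelled groups, with 95% intervals from limma; filled points passed an adjusted p of 0.05 and open points did not. The 3 panels against WT 6 months hold all filled points, with Arg1 near 5.18 to 5.30 and Nags below 0, while the other 2 panels lie around 0.

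Set against the arrays labelled WT 24 months, those labelled KO 24 months tumor had no urea cycle gene called in either direction, where 0.238% of all probe sets were called. SAM called none either. At an unadjusted p under 0.05 from limma there was 1 of the 8 genes, Nags, where 6910 of 45037 probe sets had such a p. The Nags difference was 0.36 (SE 0.16, 95% interval 0.02 to 0.71, adjusted p = 0.306 from limma). All 3 arrays labelled KO 24 months tumor lay above all 3 labelled WT 24 months, by 10.14 against 10.12 at the closest. Without WT 24 months replicate 3 the Nags difference was 0.15. The 95% intervals ran from -0.91 to 0.90 for Cps1, -0.07 to 0.80 for Otc, -0.84 to 0.91 for Ass1, -0.76 to 0.26 for Asl, -0.92 to 0.68 for Arg1, -0.13 to 0.58 for Slc25a13 and -0.31 to 0.25 for Slc25a15. These intervals use 1 spread per probe set, estimated over all 4 groups. For Cps1 and Arg1 they therefore include the wide spread under WT 6 months (SD 1.18 and 1.02), a group not compared here. Under KO 24 months tumor and WT 24 months the SD were 0.04 and 0.16 for Cps1 and 0.06 and 0.21 for Arg1. The widths thus do not rank the genes by how closely they were measured in these groups. Cps1 and Arg1 read 14.09 to 14.51 in these groups, a level at which arrays can respond less than in proportion to RNA, which was not tested.

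Between the arrays labelled KO 24 months tumor and KO 6 months no urea cycle gene was called, where 0.0200% of all probe sets were. SAM called none, and no gene had an unadjusted p under 0.05 from limma, where 2753 of 45037 probe sets had one. The largest difference was that of Ass1, at -0.36 (95% interval -1.24 to 0.52, adjusted p = 0.935 from limma). The intervals were -0.89 to 0.93 for Cps1, -0.37 to 0.50 for Otc, -0.86 to 0.73 for Arg1, -0.59 to 0.43 for Asl and -0.35 to 0.22 for Slc25a15. A difference of more than 1 on the log2 scale was thus outside the interval for each of these but Ass1. Again the intervals of Cps1 and Arg1 include the spread under WT 6 months, a group not compared here. With 3 arrays against 3, the smallest p that a two-sided exact permutation test can give is 0.1, so no such test could pass 0.05, and the number of arrays limits the precision of every value here.

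Whether the change between the labelled ages differed between the labelled genotypes was tested as the difference KO 24 months tumor minus KO 6 months, less the difference WT 24 months minus WT 6 months. If KO 24 months tumor and WT 6 months were exchanged as labels, this quantity would stay the same. By label its first part also sets tumor against normal liver, so age and tumor cannot be told apart in it. The quantity was called lower for 5 of 8 genes (Cps1, Otc, Asl, Arg1 and Slc25a15) and higher for none, where 1.42% of all probe sets were called lower and 1.73% higher, and its median was -1.28 over the 8 genes and 0.01 over all probe sets. The value was -5.37 (limma SE 0.51, adjusted p = 1.71e-04) for Arg1, -2.93 (SE 0.59, adjusted p = 0.0193) for Cps1, -1.75 (SE 0.28, adjusted p = 0.00552) for Otc, -1.69 (SE 0.33, adjusted p = 0.0169) for Asl and -0.78 (SE 0.18, adjusted p = 0.0408) for Slc25a15. Arg1 and Otc were called whichever single array was left out, whereas Asl was called in 11 of 12 such fits, Cps1 in 8 and Slc25a15 in 3. Asl was lost without KO 24 months tumor replicate 3 (adjusted p = 0.0504), and Cps1 without KO 24 months tumor replicate 1 or 2 or KO 6 months replicate 2 or 3 (adjusted p between 0.0513 and 0.0554). Slc25a15 was kept only without WT 24 months replicate 3, WT 6 months replicate 1 or WT 6 months replicate 2, and its adjusted p without any other array lay between 0.0622 and 0.0999. The count of genes called fell to 3 without any 1 of the 3 arrays labelled KO 24 months tumor, without KO 6 months replicate 2 or without KO 6 months replicate 3. Ass1 (-0.86, adjusted p = 0.552), Slc25a13 (-0.48, adjusted p = 0.369) and Nags (0.60, adjusted p = 0.216) did not pass.

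Of genes that supply ammonia and bicarbonate, 5 of 7 measured were called higher in each comparison with WT 6 months, and none lower. Shares of all probe sets called higher were 7.19%, 6.08% and 3.80% for KO 24 months tumor, KO 6 months and WT 24 months. Shares called lower were 6.95%, 6.03% and 4.96%. Hal, which releases ammonia from histidine, had means of 12.02, 11.98 and 11.63 in the arrays labelled KO 24 months tumor, KO 6 months and WT 24 months, against 5.05 in those labelled WT 6 months. Gldc, which breaks down glycine in mitochondria, had means of 11.49, 11.34 and 10.88 under these 3 labels, against 6.07 under WT 6 months. The log2 differences for WT 24 months over WT 6 months were 6.58 for Hal (adjusted p = 1.25e-07 from limma) and 4.82 for Gldc (adjusted p = 2.66e-05). The glutamine transporter Slc38a3 and the amino acid transporter Slc38a4 had smaller differences of 0.49 and 0.66, also called. Hal under the label WT 6 months lay below the array medians of 5.41 to 5.45, and with no detection call in the values used here it was not known to be above background there, so its difference describes the readings and is not an exact ratio of RNA. Car5a, the mitochondrial carbonic anhydrase that provides bicarbonate to Cps1, was called higher in the arrays labelled KO 24 months tumor (1.20, adjusted p = 0.0139) and KO 6 months (1.15, adjusted p = 0.0197) over WT 6 months, and not in WT 24 months over WT 6 months (0.42, adjusted p = 0.469). Glud1, which can release ammonia from glutamate, passed in WT 24 months over WT 6 months only (0.33, adjusted p = 0.0351), and whether it differed from the other comparisons was not tested. Aqp8, an ammonia-permeable channel, passed in none.

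On the aspartate and fumarate side of the cycle, 4 of 8 genes were called higher in KO 24 months tumor and in KO 6 months over WT 6 months and 2 of 8 in WT 24 months over WT 6 months, with none lower. Among all probe sets the shares called higher were 7.19%, 6.08% and 3.80% in the same order. Those called lower were 6.95%, 6.03% and 4.96%, and whether the counts exceed these shares was not tested. Got1, the cytosolic aspartate aminotransferase, averaged 12.33 ± 0.21, 13.21 ± 0.17 and 12.69 ± 0.67 in the arrays labelled KO 24 months tumor, KO 6 months and WT 24 months, against 8.45 ± 1.27 (SD, n = 3 each) in those labelled WT 6 months. Its log2 difference was 3.87, 4.76 and 4.23 (SE 0.50 each, adjusted p = 4.73e-04, 1.21e-04 and 3.21e-04 from limma). Fh1, which hydrates fumarate to malate, had differences of 0.67, 0.98 and 0.80, all called. Mdh1, the cytosolic malate dehydrogenase, and Slc25a11, the mitochondrial carrier of oxoglutarate and malate, were called higher in KO 24 months tumor (0.63 and 0.40) and in KO 6 months (0.76 and 0.52) over WT 6 months. Got2, the mitochondrial aminotransferase, and Slc25a12, the aspartate carrier of muscle and brain, had means between 13.16 and 13.45 and between 7.97 and 8.42 in the 4 groups and were not called in any comparison.

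**Figure D4:**
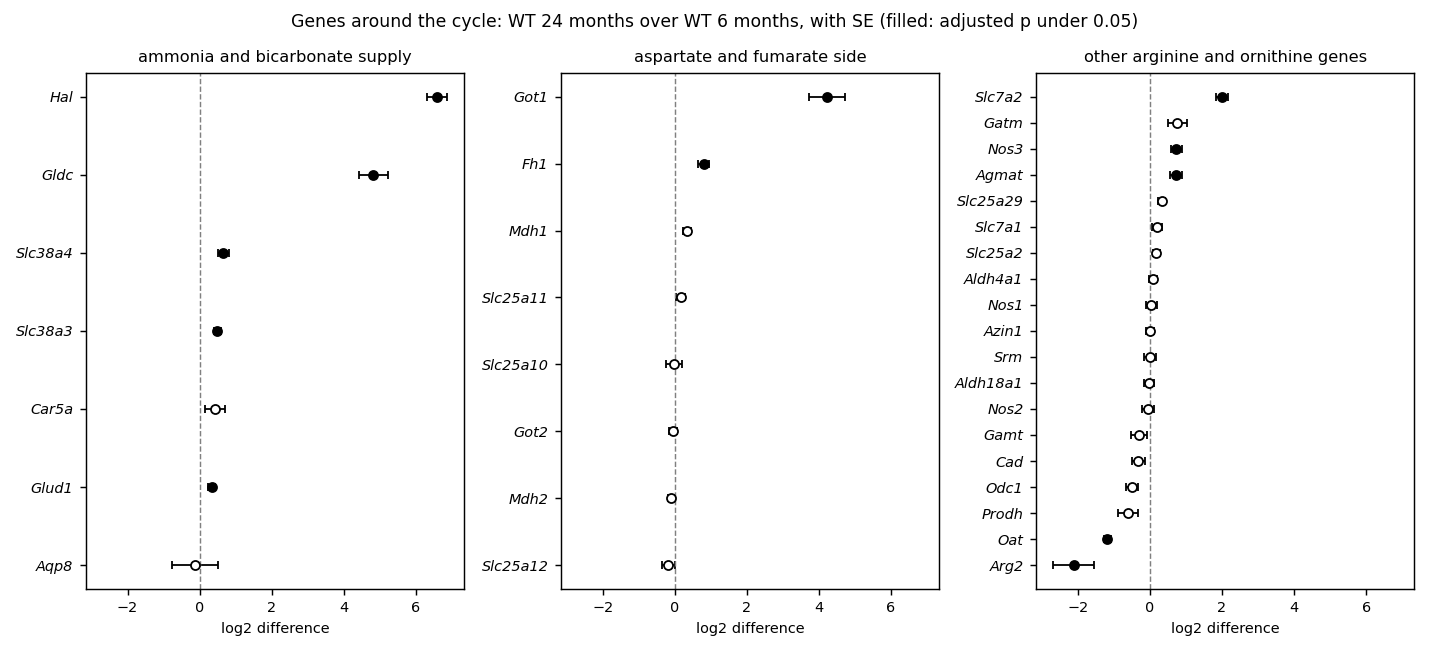
Log2 difference (horizontal axis) with SE for WT 24 months over WT 6 months in genes that supply ammonia and bicarbonate, in the aspartate and fumarate genes and in other arginine and ornithine genes; filled points passed an adjusted p of 0.05. Hal (6.58), Gldc (4.82) and Got1 (4.23) lie furthest to the right, and Oat (-1.18) and Arg2 (-2.12) are the filled points below 0; Hal under WT 6 months and Arg2 under WT 24 months were not known to be above background.

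Genes that use arginine and ornithine for other ends moved in both directions. Of 19 measured, 5 were higher and 2 lower in KO 24 months tumor over WT 6 months, 5 higher and 3 lower in KO 6 months over WT 6 months, and 3 higher and 2 lower in WT 24 months over WT 6 months. The shares of all probe sets called higher were 7.19%, 6.08% and 3.80%, and those called lower 6.95%, 6.03% and 4.96%, in the same order. Oat, the mitochondrial aminotransferase that breaks down ornithine and lies mainly in pericentral hepatocytes, averaged 13.57 ± 0.20, 13.91 ± 0.10 and 13.30 ± 0.10 in the arrays labelled KO 24 months tumor, KO 6 months and WT 24 months, against 14.48 ± 0.07 (SD, n = 3 each) in those labelled WT 6 months. It was called lower each time (-0.91, -0.57 and -1.18). Arg2, the mitochondrial arginase, averaged 3.86, 4.22 and 4.23 under the labels KO 24 months tumor, KO 6 months and WT 24 months, against 6.35 ± 1.62 (SD, n = 3) under the label WT 6 months, and it was called lower in each comparison (adjusted p = 0.0119, 0.0292 and 0.0366 from limma). Its levels under the first 3 labels lay below the array medians and were not known to be above background, so no size of this difference is read. Slc7a2, the cationic amino acid transporter of hepatocytes, was higher by 2.24, 2.49 and 2.00 on the log2 scale, all called. Agmat and Nos3 were also called higher in all 3 comparisons. Aldh4a1, a mitochondrial dehydrogenase of proline breakdown, was called higher in KO 24 months tumor (0.51) and in KO 6 months (0.63) over WT 6 months, Gatm, which uses arginine in creatine synthesis, was higher in KO 6 months over WT 6 months (1.20, adjusted p = 0.0110 from limma), and Prodh, which starts proline breakdown, was lower in KO 6 months over WT 6 months (-1.07, adjusted p = 0.0333).

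Of 14 measured regulators of urea cycle genes, 4 were called higher and 0 lower in KO 24 months tumor over WT 6 months, 2 higher and 1 lower in KO 6 months over WT 6 months, and 3 higher and 2 lower in WT 24 months over WT 6 months. Of all probe sets, 7.19%, 6.08% and 3.80% were called higher and 6.95%, 6.03% and 4.96% lower in the same order, and whether the counts exceed these shares was not tested. Cebpa and Sirt3 were called higher in all 3. Cebpa, a transcription factor whose loss in mice lowers urea cycle enzymes, averaged 12.80 ± 0.12, 12.39 ± 0.12 and 12.08 ± 0.35 in the arrays labelled KO 24 months tumor, KO 6 months and WT 24 months, against 11.33 ± 0.25 (SD, n = 3 each) in those labelled WT 6 months, with log2 differences of 1.47, 1.07 and 0.75. Sirt3, a mitochondrial deacetylase that acts on Otc, had differences of 0.72, 0.78 and 0.68. Sirt5, which acts on Cps1, was called lower in WT 24 months over WT 6 months (-0.71, adjusted p = 0.0205 from limma), and Foxa1 in KO 6 months (-0.94) and in WT 24 months (-0.91) over WT 6 months. The transcription factor Foxa2 (0.85, adjusted p = 0.0231) and the glucagon receptor Gcgr (0.66, adjusted p = 0.0177) were called higher in KO 24 months tumor over WT 6 months, and the transcription factor Cebpb (0.64, adjusted p = 0.0376) in WT 24 months over WT 6 months. Hnf4a was not called in any comparison, with means of 13.10, 12.76, 12.91 and 12.77 in the arrays labelled KO 24 months tumor, KO 6 months, WT 24 months and WT 6 months. No gene of the 4 related lists was called in KO 24 months tumor over WT 24 months or over KO 6 months. Of all probe sets, 0.238% and 0.0200% were called there, so the lack of calls does not show that these genes were alike.

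Markers of where hepatocytes lie in the lobule, and of other cell types, also moved with the arrays labelled WT 6 months, and their part in the urea cycle values was not tested. Summed over 8 measured periportal markers, of which Hal is also among the ammonia genes above, the log2 intensity was 15.72 to 15.78, 15.77 to 15.88 and 15.67 to 15.87 in the arrays labelled KO 24 months tumor, KO 6 months and WT 24 months, against 12.36 to 13.68 in those labelled WT 6 months. For 9 pericentral markers it was 15.47 to 15.62, 15.37 to 15.50 and 15.25 to 15.57 under these 3 labels, against 16.32 to 16.55 under WT 6 months. Over WT 6 months, 8, 7 and 7 of 8 periportal markers were called higher and 8, 7 and 8 of 9 pericentral markers lower in KO 24 months tumor, KO 6 months and WT 24 months. Among all probe sets, 7.19%, 6.08% and 3.80% were called higher and 6.95%, 6.03% and 4.96% lower in the same order. Proliferation markers (5 measured) summed to 7.20 to 7.42, 7.14 to 7.43 and 7.01 to 8.53 under these 3 labels, against 9.26 to 9.90 under WT 6 months, and all 5 were lower in each comparison with WT 6 months.

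Hepatocyte markers (9 measured) summed to 17.81 to 17.83, 17.82 to 17.86 and 17.89 to 17.96 in the arrays labelled KO 24 months tumor, KO 6 months and WT 24 months, against 17.70 to 17.82 in those labelled WT 6 months, and 1 of 9 was called higher in each of the 3 comparisons with WT 6 months. Their mean log2 intensity was 14.44 to 14.76, a level at which arrays can respond less than in proportion to RNA, so these sums do not show whether the share of hepatocytes was alike. Sinusoidal endothelium markers (9 measured) summed to 12.02 to 12.22, 12.09 to 12.27 and 11.68 to 12.59 under these 3 labels, against 10.16 to 10.86 under WT 6 months, and stellate cell markers (9 measured) to 12.19 to 12.36, 12.70 to 12.77 and 12.31 to 12.96, against 10.00 to 11.21 under WT 6 months. Kupffer cell markers (9 measured) summed to 10.78 to 11.25 in the arrays labelled KO 24 months tumor, 11.47 to 11.64 in those labelled KO 6 months and 11.76 to 15.24 in those labelled WT 24 months, against 11.65 to 12.32 in those labelled WT 6 months. The arrays of both KO labels thus lay below those labelled WT 6 months in these sums, for KO 6 months only by 11.64 against 11.65, and those labelled WT 24 months overlapped with WT 6 months. Under KO 6 months the means of Clec4f (9.23 against 8.32), Vsig4 (8.51 against 8.40) and Timd4 (5.95 against 5.59) were higher than under WT 6 months. Those of Cd5l, Marco, Adgre1, C1qa, C1qb and C1qc were lower. Lymphocyte markers (7 measured) summed to 8.50 to 8.65 under KO 24 months tumor, 8.66 to 8.94 under KO 6 months and 8.70 to 11.05 under WT 24 months, against 8.79 to 9.29 under WT 6 months, where KO 24 months tumor alone lay below WT 6 months. Cholangiocyte markers (5 measured) summed to 7.76 to 7.93, 7.57 to 7.89 and 7.76 to 8.01 under these 3 labels, against 7.70 to 8.62 under WT 6 months, and overlapped throughout. Over WT 6 months, 7, 8 and 8 of 9 endothelium markers, 5, 5 and 5 of 9 stellate cell markers, 0, 0 and 1 of 9 Kupffer cell markers, 1, 1 and 0 of 7 lymphocyte markers and 2, 1 and 0 of 5 cholangiocyte markers were called higher in KO 24 months tumor, KO 6 months and WT 24 months, and none of these was called lower. The shares of all probe sets called higher were 7.19%, 6.08% and 3.80% in the same order. Whether any of these marker counts, that of hepatocyte markers included, exceeds its share was not tested. Array WT 24 months replicate 3 held the highest sums of Kupffer cell and lymphocyte markers and, within its group, the lowest level of all 8 urea cycle genes. Without it, 0, 0, 6, 6 and 6 urea cycle genes were called in KO 24 months tumor over WT 24 months, over KO 6 months and over WT 6 months, in KO 6 months over WT 6 months and in WT 24 months over WT 6 months.

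Over the 12 arrays, levels of Cps1 and Arg1 had a Pearson correlation of 0.98, Cps1 and Slc25a15 of 0.97, and Cps1 and Otc of 0.96, whereas Nags correlated between -0.43 and 0.24 with the other members. These values describe 12 arrays that fall into groups, with 3 arrays far below the rest, and carry no test. As deviations from group means the values were 0.99 for Cps1 and Arg1 and 0.14 for Cps1 and Asl, but the arrays labelled WT 6 months had by far the widest spread of Cps1 and Arg1. Over the 9 arrays without that label the deviations gave 0.87 for Cps1 and Arg1 and 0.84 for Cps1 and Asl, and there WT 24 months replicate 3 was the lowest of its group in each of these genes. Among all other genes, the levels closest to those of Arg1 were Apoa5 (0.995), Hsd17b13 (0.995) and Rab2a (0.989), and those closest to Cps1 were Apoa5 (0.990), Ak4 (0.984) and Hamp (0.981). Otc was closest to Amdhd1 (0.993), Kynu (0.992) and Dclk3 (0.988), and Asl to Bmp1 (0.973), Tfr2 (0.963) and Ahcy (0.961). Slc25a15 was closest to Got1 (0.973), Apoa5 (0.967) and Tpst1 (0.967), and Slc25a13 to Ube3c (0.972), Akr1d1 (0.971) and Gfm1 (0.968). For Nags the closest were Znhit6 (0.956), Snupn (0.917) and 4632415L05Rik (0.908), and for Ass1 they were Gm128 (0.904), Akap1 (0.898) and Zbtb39 (0.882). Amdhd1, which like Hal breaks down histidine, averaged 11.28, 11.64 and 10.49 in the arrays labelled KO 24 months tumor, KO 6 months and WT 24 months, against 5.60 in those labelled WT 6 months.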

How the data were processed

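Liver RNA of 12 male mice was measured on 12 Affymetrix arrays. The deposited values are log2 intensities that the authors made by RMA in the R package simpleaffy (version not given in the sources used here), which corrects background, equalizes the distributions of the arrays and summarizes the probes of a set; differences are therefore relative to each array as a whole. Depth does not apply to arrays, and their number limits the precision. Groups came from the labels. Probe sets were named through the platform annotation supplied with the series, and of 45037 without the 64 controls, 34945 named 1 gene, which gave 18193 genes.

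The test was limma 3.58.1 (R 4.3.3) with a model of the 4 group means over all 45037 probe sets, with Benjamini-Hochberg adjustment; a call is an adjusted p under 0.05 with no fold. SE and 95% intervals come from this fit, and SD are of 3 arrays. The named genes are the 8 members with every probe set, Iqgap2, up to 6 members of each related list with the smallest adjusted p in any comparison (all where 5 or fewer were called) and, for each member, the 3 genes with the highest Pearson correlation. Hnf4a, Got2, Slc25a12, Aqp8, Amdhd1's level and the further list genes were picked after their values were seen. The members and lists were chosen with earlier results of these data known. Promoter windows came from RefSeq (GRCm38.p6). The replicates are separate mice by label.

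Alternatives were SAM, coded anew with all 20 splits of 3 arrays against 3 (fold 3 and no fold), only the arrays compared, a replicate block, 1 probe set per gene, the average over each gene's probe sets, only brighter probe sets, a fold of 3, a trended and robust prior, centring on the median or on 3 of 5 housekeeping genes of the study's PCR array, and leaving out each array. No scan date or batch was given in the sources used here, so none was tested. Figures were drawn with matplotlib 3.10.9 in Python 3.11.15.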

Additional observations from a re-analysis of the deposited data

Results flagged for a closer look

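The difference between labelled ages was not the same under both genotype labels, by the test of that difference itself, for 5 urea cycle genes: it differed by -5.37 on the log2 scale for Arg1, -2.93 for Cps1, -1.75 for Otc, -1.69 for Asl and -0.78 for Slc25a15 (KO 24 months tumor minus KO 6 months, less WT 24 months minus WT 6 months). By this test 1.42% of all probe sets were called lower and 1.73% higher. Among 12 fits that each left out 1 array, Arg1 and Otc were called in all 12. Asl was called in 11 of them, Cps1 in 8 and Slc25a15 in 3. In each of these genes the arrays labelled KO 24 months tumor and KO 6 months overlapped, and the arrays labelled WT 6 months lay below those labelled WT 24 months. By label the KO arrays at 24 months hold tumor RNA and the others normal liver, so age and tumor cannot be told apart in this difference, and Iqgap2 casts doubt on the labels KO 24 months tumor and WT 6 months.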

How the results depend on the processing

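No direction of a member was turned under any alternative that was run and in which it was called. Among 992 values of single members, 961 kept their side of the threshold, 28 lost the call and 3 gained it. With a fold of 3 beside the adjusted p, members called fell to 3 in KO 24 months tumor over WT 6 months, where 899 of 45037 probe sets were called. They fell to 3 in KO 6 months over WT 6 months, where 806 probe sets were called, and to 4 in WT 24 months over WT 6 months. With SAM and a fold of 3 they were 3, 3 and 1 in the same order, where 948, 849 and 295 probe sets were called. SAM without a fold also called 1 in WT 24 months over WT 6 months, where it called 847 probe sets in all. Leaving out 1 array at a time, members called in the difference between the age changes ranged from 3 to 5, and its median from -1.58 (without WT 24 months replicate 3) to -1.02. The causes were not tested. Centring on housekeeping genes moved the median over all probe sets to -0.12 in WT 24 months over WT 6 months and to 0.15 in the difference between the age changes, where Slc25a15 was -0.65 (adjusted p = 0.490 from limma). SAM and the fit of only the arrays compared were not run for the difference between the age changes.

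With the replicate number as a block, members called were 0 in KO 24 months tumor over WT 24 months, 0 over KO 6 months and 6 over WT 6 months, 6 in KO 6 months over WT 6 months, 5 in WT 24 months over WT 6 months and 5 in the difference between the age changes, and the medians were 0.02, -0.02, 1.04, 1.17, 1.16 and -1.28, as without the block. Over all probe sets the block gave 68 calls in KO 24 months tumor over WT 24 months (107 without it) and 3 over KO 6 months (9 without it). It gave 5783 calls in KO 24 months tumor over WT 6 months and 4886 in KO 6 months over WT 6 months. In WT 24 months over WT 6 months it gave 3620, and in the difference between the age changes 1227. The numbers did not pair the arrays: deviations from group means correlated between -0.24 and 0.19 over 18 pairs of arrays with the same number, with 3 above 0.1, and 5 of 12 arrays correlated best with an array of their own number.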
